A study of Mus musculus with 2 samples.

Results

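Endothelial genes were described across the 4 columns that the authors deposited for mouse haematopoietic stem cells (HSCs), from which every blood lineage arises. The set holds 36 genes fixed by name: 22 pan-endothelial, 6 sinusoidal and fenestrated, 4 arterial and 4 venous. All 36 were found among the 37820 genes of the gene table, and 35 of them among the 28013 genes with a linked transcript in the transcript table. No linked transcript was found for Aplnr. The study asked how the genome is reorganised between fetal and adult HSCs, and polyadenylated RNA was sequenced after HSCs were sorted from E14.5 fetal liver and from adult bone marrow. The adult group holds 2 samples, replicates 1 and 2, from B6129SF1 mice aged 6 to 8 weeks. Fetal samples are known here only from the protocol text and the header FL, and neither their strain, nor the sort markers, nor the number of pooled mice is stated in the labels.

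Both tables hold an FL and a BM column in FPKM, fragment counts scaled by the length of the feature and by the size of the library. Each column was read as the authors' value over libraries, so no value below has an SD, an n or a test. Words such as higher and lower describe these columns alone, and the depth behind them is unknown. Transcript FPKM were summed per gene. The 2 tables were normalized separately, so levels set across them are descriptions.

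Endothelial cells line all blood vessels, and HSCs arise from haemogenic endothelium, an embryonic vessel lining that buds off blood stem cells. Some surface proteins of endothelium, such as those encoded by Pecam1, Tek, Eng and Emcn, are also known on HSCs. Vessel beds differ: arterial endothelium expresses ephrin and connexin genes, venous endothelium expresses Nr2f2 and Ephb4, and liver sinusoids, the fenestrated capillaries of the fetal liver niche, express scavenger receptors.

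The columns did not pair by header for these genes. Gene-table BM and transcript-table FL had a median ratio of 1.05 over 35 members, and 28 of them lay within 10% of that ratio. The exceptions were Eng, Ece1, Podxl, S1pr1, Ptprb, Stab2 and Efnb2, and Stab2 had the highest ratio, 3.64. Between the columns headed BM, 34 members had a median ratio of 2.82 and 0 lay within 10% of it. The columns headed FL were further apart, with gene-table FL 2.89-fold to 252-fold above transcript-table FL. The gene-table BM column therefore cannot be taken as a measurement apart from the transcript-table FL column, and it may not describe adult HSCs. Every value is given by its table and header.

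The promoters of 6 members are shown first, to set members below 1 FPKM in transcript-table BM beside members well expressed there; the members' levels in that column form a range. Cldn5, Stab1 and Rasip1 had the highest gene-table FL values among members under 1 FPKM in transcript-table BM with a single promoter entry. Eng, Tie1 and Calcrl had the highest transcript-table BM values among members with a single entry. Each sequence runs from 250 bases before to 50 bases after the gene start in RefSeq (build GRCm38.p6), 5′ to 3′ on the gene's strand. Capitals mark the letters AGGAAG or CGGAAG on either strand, a core bound by ETS factors, a family that includes Erg and Fli1 of endothelium and HSCs.
Cldn5, chr16:18776597-18776896, plus strand: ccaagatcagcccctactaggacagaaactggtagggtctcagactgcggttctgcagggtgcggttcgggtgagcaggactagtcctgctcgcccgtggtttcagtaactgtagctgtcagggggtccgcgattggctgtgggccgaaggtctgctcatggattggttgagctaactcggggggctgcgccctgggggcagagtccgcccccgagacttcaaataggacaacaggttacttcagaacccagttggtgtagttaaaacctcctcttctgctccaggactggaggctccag
Stab1, chr14:31168592-31168891, minus strand: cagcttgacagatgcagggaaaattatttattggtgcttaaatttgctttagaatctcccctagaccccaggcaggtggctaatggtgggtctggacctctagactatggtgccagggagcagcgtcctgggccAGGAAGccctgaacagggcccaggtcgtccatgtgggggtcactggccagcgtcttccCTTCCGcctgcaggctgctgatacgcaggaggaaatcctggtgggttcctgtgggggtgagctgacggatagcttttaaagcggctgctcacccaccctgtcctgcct
Rasip1, chr7:45627287-45627586, plus strand: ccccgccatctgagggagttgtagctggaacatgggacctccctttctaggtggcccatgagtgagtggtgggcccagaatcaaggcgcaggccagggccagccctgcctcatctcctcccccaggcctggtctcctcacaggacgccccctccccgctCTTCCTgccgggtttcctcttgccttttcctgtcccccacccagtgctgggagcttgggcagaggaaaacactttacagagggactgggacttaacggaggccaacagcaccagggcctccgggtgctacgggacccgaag
Eng, chr2:32646345-32646644, plus strand: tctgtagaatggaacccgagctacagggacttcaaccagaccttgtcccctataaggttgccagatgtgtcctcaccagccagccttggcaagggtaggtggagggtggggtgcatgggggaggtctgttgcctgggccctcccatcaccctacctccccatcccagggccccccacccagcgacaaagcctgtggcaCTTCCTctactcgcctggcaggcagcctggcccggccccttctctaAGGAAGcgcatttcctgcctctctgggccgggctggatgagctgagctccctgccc
Tie1, chr4:118489800-118490099, minus strand: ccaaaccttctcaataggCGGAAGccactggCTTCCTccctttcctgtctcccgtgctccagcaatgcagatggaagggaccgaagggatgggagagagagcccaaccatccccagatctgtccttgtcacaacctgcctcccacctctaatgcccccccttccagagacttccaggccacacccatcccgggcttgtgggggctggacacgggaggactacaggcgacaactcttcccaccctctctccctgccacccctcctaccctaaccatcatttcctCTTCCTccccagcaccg
Calcrl, chr2:84425217-84425516, minus strand: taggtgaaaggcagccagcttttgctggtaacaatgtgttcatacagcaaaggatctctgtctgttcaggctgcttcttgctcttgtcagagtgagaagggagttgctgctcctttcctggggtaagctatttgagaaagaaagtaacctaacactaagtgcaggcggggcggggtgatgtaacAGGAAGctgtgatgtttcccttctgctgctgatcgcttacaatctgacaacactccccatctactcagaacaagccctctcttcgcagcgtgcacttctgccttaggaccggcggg

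Among these 6 windows Cldn5 held 0 matches, Rasip1 and Calcrl 1 each, Stab1 and Eng 2 each, and Tie1 held 3. Over all members, 23 had 28 promoter entries, and 15 of the 28 (53.6%) held the ETS letters, against 46.5% of 32851 promoters of the same length. The letters AGATAA of GATA factors, searched on both strands, stood in 1 of 28 member promoters (3.57%) and in 11.2% of all promoters. The letters ACAATG of SOX factors, also on both strands, stood in 2 of 28 (7.14%) and in 12.6%. The motifs were searched separately, so their matches may overlap. A match describes the letters of the window only.

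All 36 members had their highest value in the FL column of the gene table. That column was the highest of the 4 for 33.8% of 13463 genes at 1 FPKM or more in any column. Every member was at 1 FPKM or more there, against 34.5% of all genes in that column, and the members ranged from 8.21 FPKM for Gpihbp1 to 649 FPKM for Egfl7, with a median of 87.5 FPKM. At the same level were 26 of 36 members in gene-table BM, 16 of 35 in transcript-table BM and 24 of 35 in transcript-table FL, against 32.3%, 41.6% and 40.9% of all genes. The medians of the members were 3.35, 0.727 and 3.12 FPKM in these columns. Endothelial members thus stood among abundant genes in the gene-table FL column: 15 of 36 were in its top 5% of genes at 1 FPKM or more, against 2, 1 and 2 in gene-table BM, transcript-table BM and transcript-table FL. Their FPKM summed to 1.07% of the gene-table FL column, against 0.108% of gene-table BM, 0.114% of transcript-table BM and 0.114% of transcript-table FL (linked transcripts). In a sorted population, a larger share of cells of a type and more RNA per cell cannot be told apart.

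**Figure D1:**
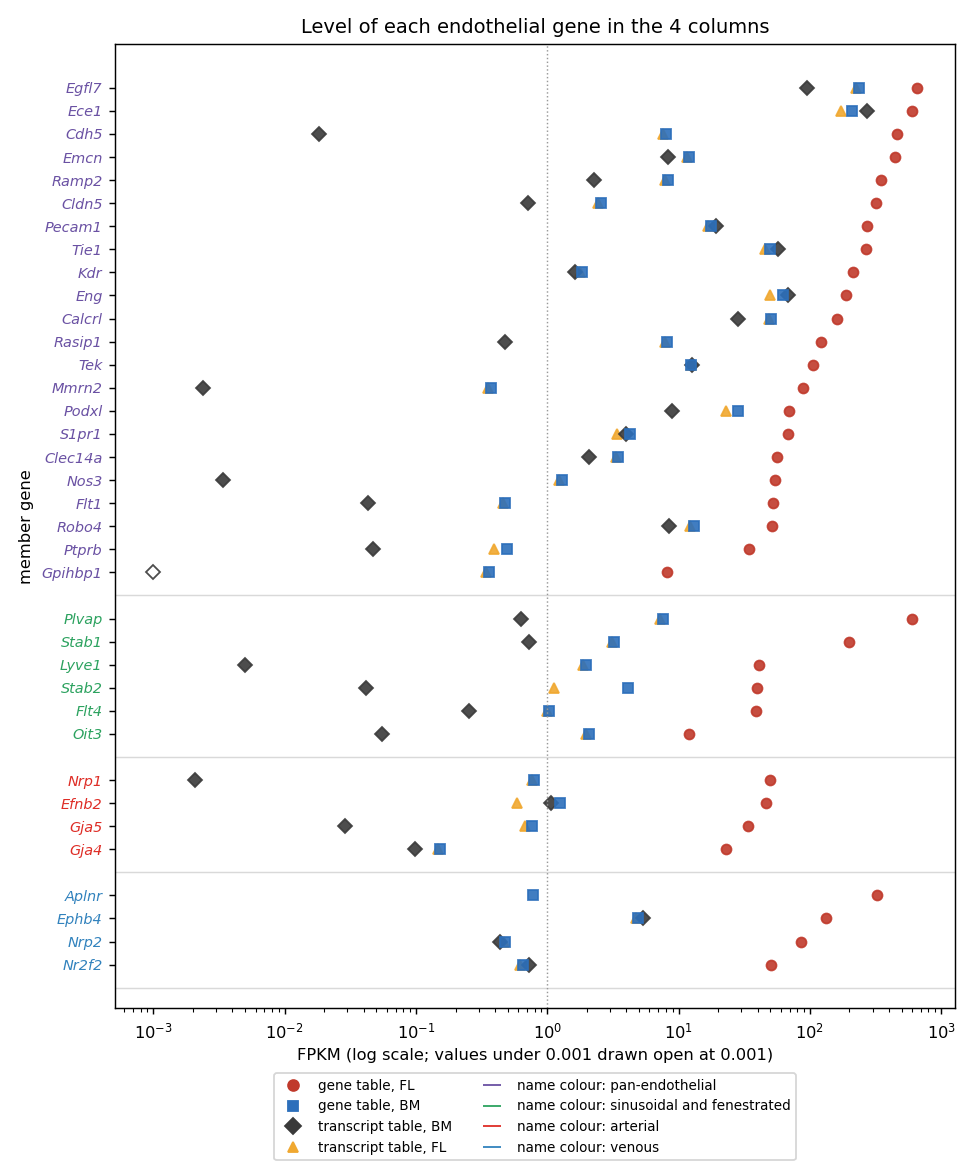
FPKM of each of the 36 members on a log axis, with 1 row per gene and 1 point per column of the 2 tables; the dotted line is at 1 FPKM. The gene-table FL points lie to the right of all others in every row, the gene-table BM and transcript-table FL points mostly coincide, and the transcript-table BM points spread from 0 (Gpihbp1, drawn open) to 273 FPKM (Ece1).

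The difference between the columns of the gene table was expressed as a relative log2 ratio, log2((FL + 0.1) / (BM + 0.1)) minus its median of -0.24 over genes that reached 1 FPKM in FL and in BM. At least 2-fold higher in FL than in BM were 36 of 36 members, against 23.6% of 13834 genes at 1 FPKM or more in either column; 0 members and 12.3% of those genes were at least 2-fold lower. The members' median was 5.34, and the median over those genes was 0.07. All 36 members passed this filter on low values through their FL value, and 26 of them also reached 1 FPKM in gene-table BM. The rest passed through FL alone, which fixed their direction. The same holds in the comparisons with transcript columns below, where 16 of 35 members reached 1 FPKM in BM and 24 in FL. Against the transcript table, on the same scale, 35 of 35 members were at least 2-fold higher in gene-table FL than in transcript-table BM (25.5% of all genes, members' median 6.87). The same count held over transcript-table FL (26.7% of all genes, median 5.27). At least 2-fold above each of the other 3 columns were 35 of 35 members, against 17.3% of genes at 1 FPKM or more in any column. These comparisons share the gene-table FL column and are not independent of each other.

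**Figure D2:**
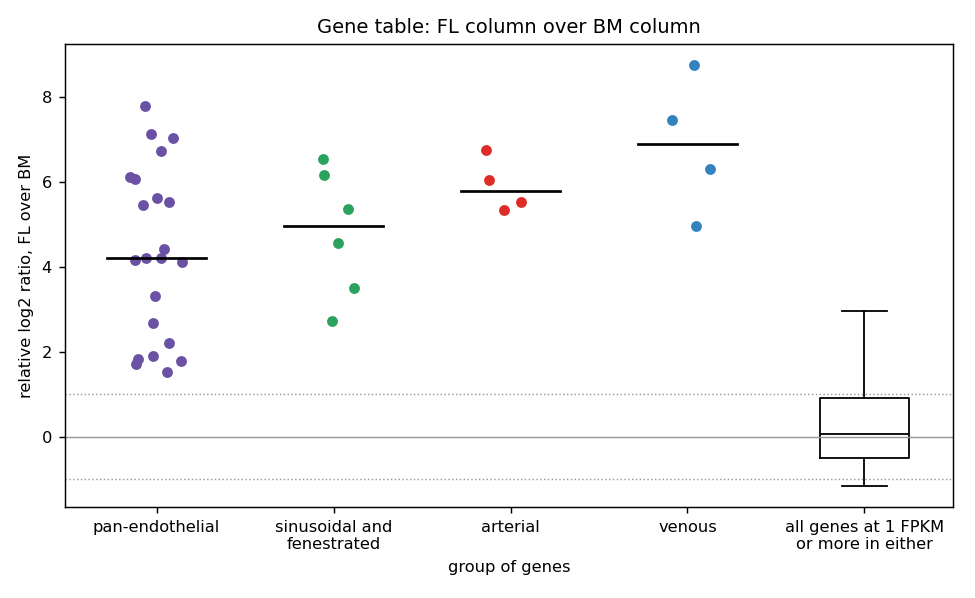
Relative log2 ratio of the FL over the BM column of the gene table for each member by class (points; bars are medians) and for all 13834 genes at 1 FPKM or more in either column (box of the quartiles, whiskers at the percentiles 10 and 90). All members lie above the dotted line at 2-fold; the class medians run from 4.21 (pan-endothelial) to 6.88 (venous).

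The receptors and junction proteins that build and hold the vessel wall showed the difference at high levels. Cdh5, which encodes VE-cadherin of endothelial junctions, was at 457 FPKM in gene-table FL, against 7.97 in gene-table BM, 0.0183 in transcript-table BM and 7.67 in transcript-table FL. Cldn5, a tight junction claudin gene, was at 316 FPKM, against 2.56, 0.710 and 2.44 FPKM in the same order of columns. Both genes were thus over 50-fold higher in gene-table FL than in gene-table BM, at 57.4-fold and 124-fold. Kdr, which encodes VEGF receptor 2, the main receptor of vessel growth, was at 214 FPKM in gene-table FL, against 1.83, 1.62 and 1.76 FPKM in gene-table BM, transcript-table BM and transcript-table FL. Flt1, which encodes VEGF receptor 1, a receptor that also acts as a decoy, was at 52.0 FPKM, against 0.478, 0.0435 and 0.459 FPKM. Kdr was alike in the 3 lower columns. Flt1 was under 1 FPKM in each of them, so its lower value in transcript-table BM is uncertain. Its relative log2 ratio of transcript-table BM over FL was -1.97, and -0.49 with a pseudocount of 1 FPKM. Aplnr, the apelin receptor gene of venous and capillary endothelium, had the largest fold of the 36 members in the gene table, 410, at 322 FPKM in gene-table FL and 0.785 FPKM in gene-table BM.

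Angiopoietin receptor genes and several other members were higher by smaller folds. Tie1, an orphan receptor gene of the angiopoietin pathway, was at 267 FPKM in gene-table FL, against 49.6 in gene-table BM, 57.6 in transcript-table BM and 45.6 in transcript-table FL. Tek, which encodes the angiopoietin receptor TIE2, was at 105 FPKM, against 12.4, 12.6 and 12.3 FPKM. Eng, which encodes endoglin, a TGF-beta co-receptor, was at 188 FPKM, against 62.6, 67.8 and 49.9 FPKM. In these 3 genes the transcript-table BM value was slightly above the transcript-table FL value. Ece1, a gene of the endothelin-converting enzyme, was at 601 FPKM in gene-table FL, against 208, 273 and 173 FPKM, and Egfl7, a secreted vascular factor gene, at 649 FPKM, against 236, 95.0 and 224 FPKM. Podxl, a sialomucin gene, had the smallest fold of all members, 2.44, at 69.0 FPKM in gene-table FL and 28.2 FPKM in gene-table BM. The members with the lowest gene-table folds after it were Egfl7 (2.75), Ece1 (2.89), Eng (3.01), the adrenomedullin receptor gene Calcrl (3.18) and the guidance receptor gene Robo4 (3.93). All 6 stand on the list of 15 members known from blood cells as well, whose median relative log2 ratio was 3.31, against 5.62 for the other 21 members. The list was drawn up with earlier results of these data known, so this contrast is a description only. That list also holds members with large folds, among them Nrp1 (62.5), Stab1 (61.9), Cdh5 (57.4), Emcn (37.3) and Lyve1 (20.8).

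The remaining pan-endothelial genes spanned a wide range of levels, each with its highest value in gene-table FL. Emcn, the endomucin gene of capillary and venous endothelium, was at 446 FPKM in gene-table FL, against 12.0 in gene-table BM, 8.36 in transcript-table BM and 11.5 in transcript-table FL. Pecam1, which encodes the adhesion molecule CD31, was at 270 FPKM, against 17.8, 19.3 and 16.9 FPKM. Ramp2, which encodes the partner protein of the Calcrl receptor, was at 348 FPKM, against 8.24, 2.28 and 7.89 FPKM. The receptor and its partner differed in fold within the gene table, at 3.18 for Calcrl and 42.2 for Ramp2. Mmrn2, an endothelial matrix protein gene, was at 89.0 FPKM in gene-table FL and 0.374 FPKM in gene-table BM, and Nos3, the endothelial nitric oxide synthase gene, was at 53.9 and 1.28 FPKM in these columns. Gene-table FL values of Rasip1 (a regulator of vessel lumen formation), S1pr1 (a sphingosine phosphate receptor), Clec14a (an endothelial lectin), Robo4 and Ptprb (the vascular phosphatase VE-PTP) lay between 34.6 FPKM for Ptprb and 122 FPKM for Rasip1. Their gene-table BM values lay between 0.495 FPKM for Ptprb and 13.2 FPKM for Robo4. Gpihbp1, which anchors lipoprotein lipase in capillaries, had the lowest gene-table FL value of all members, 8.21 FPKM, against 0.363 FPKM in gene-table BM.

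The sinusoidal and fenestrated genes were all at 1 FPKM or more in gene-table FL and none was in transcript-table BM. Plvap, whose protein forms the diaphragms of fenestrae, was at 599 FPKM in gene-table FL, against 7.54 in gene-table BM, 0.634 in transcript-table BM and 7.21 in transcript-table FL. Stab1, a scavenger receptor gene of sinusoids and of some macrophages, was at 199 FPKM, against 3.22, 0.727 and 3.12 FPKM. Its sinusoidal paralogue Stab2 was at 39.7 FPKM, against 4.08, 0.0417 and 1.12 FPKM; the 2 estimates for the gene-table BM and transcript-table FL columns differ for this gene, as given above. Plvap and Stab1 were thus far more abundant in gene-table FL than the other 4 genes of the class. Lyve1, a hyaluronan receptor gene of lymphatic and sinusoidal endothelium and of macrophages, was at 40.8 FPKM, against 1.96, 0.00495 and 1.88 FPKM. Flt4, which encodes VEGF receptor 3, was at 38.9 FPKM, against 1.03, 0.252 and 0.987 FPKM. Oit3, a liver sinusoidal gene, was lowest at 12.0 FPKM, against 2.07, 0.0547 and 1.98 FPKM, and its gene-table fold of 5.77 was the smallest of the class. The class median of the relative log2 ratio in the gene table was 4.95.

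Other sinusoidal genes did not all have this order. Of 13 with a value, 12 were at 1 FPKM or more in either column of the gene table, with a median of 3.26. Of these 12, 9 were at least 2-fold higher in FL, against 23.6% of all genes, and 1 lower, against 12.3%. In gene-table BM 9 of the 12 reached 1 FPKM, and the rest passed the filter through FL alone. The lower gene passed through BM alone. The filter fixed the direction of all of these, so the counts are descriptions. Clec4g, a lectin gene of liver sinusoids, was the lower gene, at 0.564 FPKM in gene-table FL, against 2.29 in gene-table BM, 0.222 in transcript-table BM and 2.19 in transcript-table FL. Ehd3 and Hgf also had their lowest value in gene-table FL. Ehd3 was at 6.52 FPKM there, against 12.1, 24.7 and 11.6 FPKM in the same order of columns. Hgf was at 1.92 FPKM, against 2.55, 7.33 and 2.44 FPKM. Their relative log2 ratios in the gene table, -0.64 and -0.15, were within 2-fold. Dnase1l3, a nuclease gene expressed in liver sinusoids, was under 1 FPKM in each of the 4 columns, with 0.341 and 0.397 FPKM in FL and BM of the gene table. Mrc1, a mannose receptor gene shared with macrophages, was at 65.3 FPKM in gene-table FL and 2.73 FPKM in gene-table BM.

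Arterial genes were at moderate levels in gene-table FL and at 1.26 FPKM or less in the other columns, where 3 of 4 were under 0.1 FPKM in transcript-table BM. Nrp1, a VEGF and semaphorin co-receptor gene, was at 49.6 FPKM in gene-table FL, against 0.794 in gene-table BM, 0.00206 in transcript-table BM and 0.762 in transcript-table FL. Efnb2, which encodes ephrin B2, the arterial partner of EPHB4, was at 46.1 FPKM, against 1.26, 1.06 and 0.588 FPKM. The connexin genes Gja5 and Gja4 were at 33.8 and 23.1 FPKM in gene-table FL and under 1 FPKM in the other 3 columns, with 0.766 and 0.153 FPKM in gene-table BM. The class median of the relative log2 ratio was 5.78. Of 12 other arterial genes, all at 1 FPKM or more in gene-table FL, 10 were at least 2-fold higher in FL and 1 lower. All genes gave 23.6% and 12.3%, and the median of the 12 was 4.30. In gene-table BM 5 of the 12 reached 1 FPKM, and the filter fixed the direction of the rest. Sox17, an arterial transcription factor gene, was at 37.1 FPKM in gene-table FL and 0.0335 FPKM in gene-table BM, and the Notch ligand gene Dll4 at 12.8 and 0.744 FPKM. The lower gene was the chemokine receptor gene Cxcr4, which HSCs also express, at 8.14 FPKM in gene-table FL and 26.9 FPKM in gene-table BM.

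Venous genes had the highest class median, 6.88, although the classes hold 4 to 22 genes and no difference between them was tested. Ephb4, the venous ephrin receptor gene, was at 132 FPKM in gene-table FL, against 4.93 in gene-table BM, 5.34 in transcript-table BM and 4.74 in transcript-table FL. Nr2f2, which encodes the venous fate factor COUP-TFII, was at 50.3 FPKM, against 0.654, 0.727 and 0.616 FPKM. Nrp2, a co-receptor gene of veins and lymphatics, was at 86.1 FPKM, against 0.476, 0.433 and 0.467 FPKM. Nrp2 had nearly the same value in the 3 lower columns, all under 1 FPKM. Genes of lymphatic endothelium outside the members were mostly low in gene-table FL: Prox1, the lymphatic fate factor gene, was at 2.28 FPKM, Pdpn at 2.01 FPKM and Reln at 0.398 FPKM, whereas Sox18, which is not confined to lymphatics, was at 136 FPKM. Their gene-table BM values were 0.0908, 0.495, 0.00869 and 17.2 FPKM.

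The BM column of the transcript table, which carries the adult header, held the members over a wide range of levels. Relative to transcript-table FL, 12 of 25 members at 1 FPKM or more in either column were at least 2-fold lower in transcript-table BM, against 8.82% of 12221 genes, and 0 were at least 2-fold higher, against 13.3%. Of these 12 members, 9 were under 1 FPKM in transcript-table BM and passed the filter through transcript-table FL alone, which fixed their direction, so the count is a description. The other 3, at 1 FPKM or more in transcript-table BM, were Egfl7, Ramp2 and Podxl. The 10 linked members below the filter were Flt1, Mmrn2, Gpihbp1, Ptprb, Flt4, Gja4, Gja5, Nrp1, Nr2f2 and Nrp2. Over the 25 the median relative log2 ratio was -0.77, over all 35 linked members it was -1.36, and over the 12221 genes it was 0.02. In transcript-table BM, 12 members were under 0.1 FPKM, 7 were from 0.1 to under 1, 9 were from 1 to under 10, and 7 were at 10 FPKM or more. The first of these groups held Cdh5, Flt1, Gja4, Gja5, Gpihbp1, Lyve1, Mmrn2, Nos3, Nrp1, Oit3, Ptprb and Stab2, and the last held Calcrl, Ece1, Egfl7, Eng, Pecam1, Tek and Tie1. Gpihbp1 was listed at 0.

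Relative log2 ratios of Cdh5 (-6.04), Rasip1 (-3.80) and Plvap (-3.32) in transcript-table BM rest on transcript-table FL values over 7 FPKM, and they depend on the pseudocount: with 1 FPKM they were -3.09, -2.59 and -2.33. The 5 sinusoidal and fenestrated genes that passed the filter did so through transcript-table FL alone, so their lower values in transcript-table BM were fixed by the filter. Stab1, at -1.97, was at -0.96, within 2-fold, when the most abundant transcript of each column was used. These were different transcripts, Stab1-207 at 0.597 FPKM in BM and Stab1-201 at 1.29 FPKM in FL. Conversely, 9 members had a higher value in transcript-table BM than in transcript-table FL, each by less than 2-fold: Pecam1, Tie1, Tek, Eng, Ece1, S1pr1, Efnb2, Ephb4 and Nr2f2. Efnb2 had the highest relative log2 ratio, 0.75, with 1.06 FPKM in transcript-table BM and 0.588 FPKM in transcript-table FL, and Ece1 followed with 0.65. Of the 15 members known from blood cells as well, 11 were at 1 FPKM or more in transcript-table BM, the exceptions being Cdh5, Nrp1, Stab1 and Lyve1. Among the other 20 linked members 5 were at that level: Ephb4 at 5.34, Ramp2 at 2.28, Clec14a at 2.07, Kdr at 1.62 and Efnb2 at 1.06 FPKM. The list of members known from blood cells rests on general knowledge and was drawn up with earlier results of these data known.

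**Figure D3:**
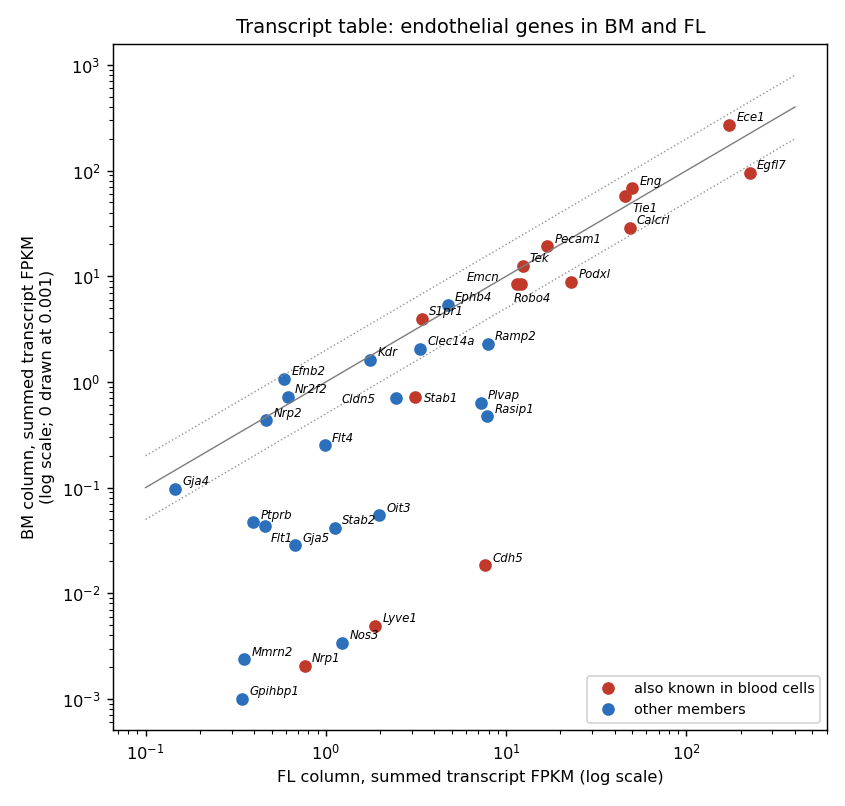
Summed transcript FPKM of 35 members in the BM column (vertical, log scale; 0 drawn at 0.001) and the FL column (horizontal, log scale) of the transcript table; the solid line marks equal values and the dotted lines 2-fold. Members such as Ece1, Eng, Tie1 and Pecam1 lie near the solid line, and Cdh5, Lyve1, Nos3, Nrp1, Mmrn2 and Gpihbp1 lie far below it.

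The transcripts behind the sums differed between columns for several members. Egfl7 had 19 linked transcripts, and its summed 95.0 and 224 FPKM in transcript-table BM and FL came from different ones. Egfl7-202, a coding transcript, was at 2.84 FPKM in BM and 77.0 FPKM in FL, 2.99% and 34.3% of the gene. Egfl7-216, another coding transcript, was at 35.9 FPKM in BM and 26.0 FPKM in FL, 37.7% and 11.6% of the gene. Egfl7-216 was thus higher in BM although the sum of the gene was lower there. The Robo4 transcripts 203 and 201 held 80.0% and 19.9% of the gene in BM, against 51.1% and 48.6% in FL. Stab1 in BM was carried by Stab1-207 with 82.1% of its 0.727 FPKM, and Stab1-201, the most abundant in FL, was at 0.0684 FPKM in BM and 1.29 FPKM in FL. For Calcrl, 41.4% of the BM value and 46.4% of the FL value came from a transcript annotated as not coding, Calcrl-203. Shares of overlapping transcripts are model estimates with no error given, and those of genes near 1 FPKM are least certain.

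Transcription factor genes of endothelium varied in direction. Of 21 endothelial transcription factor genes with a value, 20 were at 1 FPKM or more in either column of the gene table. Of these 20, 12 were at least 2-fold higher in FL, against 23.6% of all genes, and 3 lower, against 12.3%. In gene-table BM 14 of the 20 reached 1 FPKM, and the filter fixed the direction of the rest. Their median was 2.57. The higher genes included Klf2, a gene induced by blood flow in endothelium, at 115 FPKM in gene-table FL, against 1.53 in gene-table BM, 7.39 in transcript-table BM and 1.45 in transcript-table FL. Sox7 was at 31.1 FPKM, against 0.0964, 0 and 0.0845 FPKM, and Elk3, an ETS factor gene, was at 189 FPKM, against 43.3, 25.1 and 23.6 FPKM. Erg and Fli1, ETS factor genes of both endothelium and HSCs, were within 2-fold in the gene table, at 56.4 and 61.8 FPKM in gene-table FL against 75.8 and 57.6 FPKM in gene-table BM. The lower genes were Tal1, Lmo2 and Gata2, which blood stem cells require, with Lmo2 at 130 FPKM in gene-table FL and 367 FPKM in gene-table BM. Of 16 vascular ligand genes with a value, 12 passed the filter, and 9 of these were at least 2-fold higher and 1 lower in FL. The same shares of all genes apply, and only 4 ligand genes reached 1 FPKM in gene-table BM. The lower one was Angpt1, the ligand gene of TIE2, at 7.53 FPKM in gene-table FL, against 30.3, 144 and 29.2 FPKM in gene-table BM, transcript-table BM and transcript-table FL. Vegfa, the ligand gene of KDR and FLT1, was at 11.5 FPKM, against 12.4, 5.73 and 8.30 FPKM.

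Markers of other cell types also differed beside the endothelial genes in the gene table. Over all genes past the filter, 23.6% were at least 2-fold higher in FL and 12.3% lower. In each list, a gene past the filter but under 1 FPKM in 1 of the columns passed through the other. That fixed its direction. Other endothelial markers were at least 2-fold higher in FL for 18 of 21 genes past the filter, with 0 lower and a median of 2.71. The highest of them were Cd34, Esam, Vwf and Ecscr, at 279, 175, 174 and 172 FPKM in gene-table FL against 120, 44.4, 13.5 and 11.3 FPKM in gene-table BM. Myct1, Selp and Aqp1 were within 2-fold. Aqp1 was lowest in gene-table FL, at 25.3 FPKM against 59.1 in gene-table BM, 56.4 in transcript-table BM and 56.5 in transcript-table FL. Its relative log2 ratios over these columns were -0.98, -1.08 and -1.06. Mural and stromal markers were higher in 12 of 12 genes past the filter (median 5.80), but only 3 reached 1 FPKM in gene-table BM. Their 13 genes summed to 877 FPKM in gene-table FL, against 17.6, 14.0 and 16.3 FPKM in gene-table BM, transcript-table BM and transcript-table FL. Acta2, the smooth muscle actin gene, was at 66.1 FPKM in gene-table FL and 0.0359 FPKM in gene-table BM. Markers of macrophages, in which Stab1 and Lyve1 are also known, summed to 645 FPKM in gene-table FL, against 273, 6.49 and 260 FPKM. They were higher in 6 and lower in 3 of 9 genes past the filter. C1qb was at 206 FPKM in gene-table FL and 55.8 FPKM in gene-table BM, and Marco, a gene of tissue macrophages, was at 0.372 and 28.4 FPKM in these columns.

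Haematopoietic markers went the other way. Of 15 haematopoietic markers, 11 were at least 2-fold lower in gene-table FL, against 12.3% of all genes, and 0 were higher, against 23.6%. Their median was -1.48. They summed to 493 FPKM in gene-table FL and 1510 FPKM in gene-table BM. Ptprc, which encodes the pan-leukocyte antigen CD45, was at 10.3 FPKM in gene-table FL, against 21.4, 9.57 and 3.32 FPKM in gene-table BM, transcript-table BM and transcript-table FL. Kit was at 35.5 FPKM, against 117, 181 and 112 FPKM. Erythroid markers were lower than in gene-table BM in 6 of 9 genes past the filter (median -2.41). Set against transcript-table BM, 4 of 8 past the filter were higher in gene-table FL (25.5% of all genes) and 3 lower (median 1.29). Of the higher genes, Hba-a1, Alas2 and Slc4a1 were under 1 FPKM in transcript-table BM. The lower gene Klf1 was under 1 FPKM in gene-table FL. The filter fixed the direction of these genes, so the counts are descriptions. The globin gene Hba-a1 was at 58.1 FPKM in gene-table FL and 0.0901 FPKM in transcript-table BM. Set beside transcript-table BM, 10 of 15 haematopoietic markers were at least 2-fold lower in gene-table FL (median -2.08). The share of all genes lower in that comparison was not computed, so its counts of lower genes are descriptions only. Gata1 and Slamf1, under 1 FPKM in gene-table FL, passed the filter through the other column, which fixed their direction. Hepatocyte markers summed to 55.6 FPKM in gene-table FL and 42.6 FPKM in gene-table BM; 40.9 FPKM of the first sum came from the transferrin gene Trf, and Alb was at 0.381 and 6.74 FPKM in these columns. Housekeeping genes were within 2-fold in 11 of 12, with a median of -0.09. In gene-table FL, 13 of 15 haematopoietic markers, including Ptprc and Kit, were at 1 FPKM or more, against 34.5% of all genes in that column. Gata1 (0.906 FPKM) and Slamf1 (0.652 FPKM) were below. All 15 were at that level in gene-table BM, transcript-table BM and transcript-table FL. The part of other cells in the endothelial values was not tested.

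**Figure D4:**
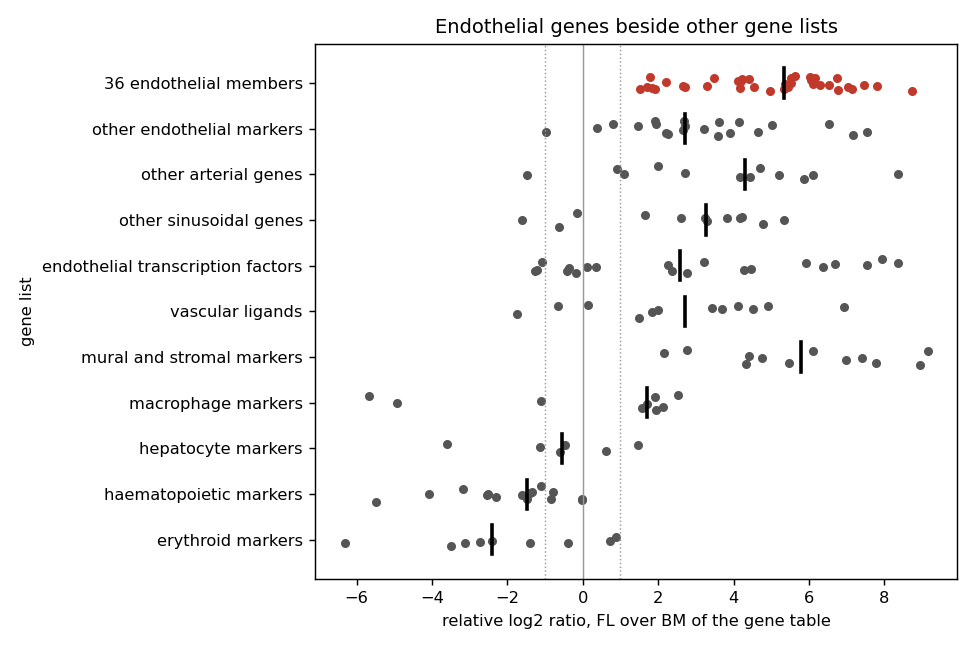
Relative log2 ratio of the FL over the BM column of the gene table for the 36 members (top) and for the genes of 10 other lists at 1 FPKM or more in either column; bars are list medians and the dotted lines mark 2-fold. Endothelial and mural lists lie to the right, with medians of 5.34 for the members and 5.80 for mural and stromal genes, and haematopoietic and erythroid lists to the left, with medians of -1.48 and -2.41.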

How the data were processed

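HSCs were sorted, polyadenylated RNA was selected and libraries were made with an NEBNext Ultra kit, per the labels' protocol. The authors deposited FPKM in a gene table and a transcript table, 1 FL and 1 BM column each. TopHat, Cufflinks, featureCounts (Subread), edgeR and build mm9 appear, with no role or version, in the submitters' processing notes; the annotation release is not stated there. Being scaled by library total, FPKM of most genes shift with a few abundant ones and keep no depth. BM columns were assigned to the adult group by header; FL was read as fetal liver from the protocol.

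Identifiers were matched to GENCODE M21, which is of a later build, for symbols (32838 of 37820 genes) and for 76512 of 87641 transcripts. Unlinked transcripts held 10.9% of the FPKM in BM and 10.4% in FL. A pseudocount of 0.1 FPKM, detection at 1 FPKM and a 2-fold threshold were used, with ratios centred on the median gene; the calculation was tested on simulated data. Named were all members. From other lists only examples were named, many of them after their values were seen. The plan to name the highest 4 in gene-table FL, genes at 0 and genes of divergent order was not followed throughout. Members and lists were chosen with earlier results of these data known. Alternatives changed the pseudocount, centring, scaling, filter, threshold and transcript summing. Python 3.11.15, numpy 2.4.6, pandas 2.3.3 and matplotlib 3.10.9 were used.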

Additional observations from a re-analysis of the deposited data

How the results depend on the processing

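In the gene table, 36 members were at least 2-fold higher in FL than in BM under each of the scalings, pseudocounts and filters tried, and 31 were at least 4-fold higher. Their median relative log2 ratio of 5.34 was 4.56 with a pseudocount of 1 FPKM, which by construction shrinks ratios of low values; the other alternatives kept it between 5.10 and 5.48. In the transcript table, 12 members were at least 2-fold lower in BM than in FL. That count was 19 with no filter on low values (median -1.36) and 6 among members at 5 FPKM or more in either column. It was 7 at a 4-fold threshold and 10 from the most abundant transcript of each column, which can differ between columns. The first 2 of these settings change how many members are counted. At a detection level of 5 FPKM, 14 members were detected in gene-table BM and 14 in transcript-table FL, against 26 and 24 at 1 FPKM. No called ratio of a member changed sign under the alternatives run. With a pseudocount of 1 FPKM, 7 members below 1 FPKM in both transcript columns, among them Flt1, Gja5 and Nrp1, no longer differed by 2-fold. No replicate could be left out, since each column is a pooled value. No paired analysis was possible because the columns carry no replicate numbers. Values below 0.1 FPKM cannot be ranked, as the depth is unknown.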
